A study of Mus musculus with 7 samples.

Results

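The WT-only distal H3K4me2 regions are stretches of the mouse genome where the peak caller found histone H3 dimethylated at lysine 4 in both WT libraries of common monocyte progenitors (cMoPs) and in neither DE library. They were found by merging touching or overlapping autosomal intervals of the 4 H3K4me2 peak lists into 39395 regions (mm10). A region was a member when both WT lists and no DE list had a peak on it, when it lay more than 1 kb from both ends of every protein-coding gene, and when no H3K4me3 peak of WT cMoPs overlapped it. Of the 39395 regions, 2147 met all of these conditions. The members were thus chosen by the peak calls in the 4 H3K4me2 lists and the H3K4me3 list, so the loss of a call in DE is their definition and not a finding, and no test is made on it.

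The study is set around an enhancer at -165 kb from Zeb2, which encodes a transcription factor that binds E-box DNA, and its title concerns ID2, E proteins and the choice of the dendritic cell type cDC1. H3K4me2 was profiled in cMoPs sorted from bone marrow of mice of the genotype labelled DE for that enhancer (2 libraries), a label that the sources used here do not expand. These were set against H3K4me2 in cMoPs from bone marrow of mice with the WT enhancer (2 libraries), and the filter on promoters came from H3K4me3 in WT cMoPs (1 library). The H3K4me2 libraries were all of batch 2 and the H3K4me3 library of batch 1, and 2 further samples (IgG, and H3K4me3 in cells labelled MDP) were not analysed here. The labels give no strain, age or sex, and do not say that replicates came from separate animals, so any spread between libraries may be technical.

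cMoPs are bone marrow cells committed to making monocytes. Dimethylation of lysine 4 on histone H3 marks both promoters and enhancers, while trimethylation of the same residue is concentrated at active promoters. A region with the first mark, without the second and away from gene ends is thus the usual outline of a candidate enhancer. Trimethylation was read here from 1 list of 6322 autosomal peaks. Within 1 kb of gene ends, 6728 regions called in both WT lists had no H3K4me3 peak, and 4198 had such a peak. A missing H3K4me3 peak is therefore weak evidence that a member lacks trimethylation. In CUTAC an antibody brings the transposase to the marked nucleosome and low salt lets it cut the accessible DNA beside it, which yields short fragments at open regulatory sites. Enhancers are used by fewer cell types than promoters are, and the enhancers of a progenitor include many that are shared with earlier or later cells of its lineage.

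The DE lists were shorter than the WT lists, which bears on every count below. On the autosomes they held 21237 and 16584 peaks in DE replicates 1 and 2, against 31217 and 27282 peaks in WT replicates 1 and 2, and 6322 in the H3K4me3 list. A shorter list leaves more WT regions without a call, so members are compared, where stated, with regions of the same kind and of like strength in WT. Motif shares, GC content, the agreement of WT ranks and the shares of tRNA genes and gene starts were not set to like strength. Rank is the place of a region's strongest peak by -log10 p in a WT list, as a percentage of that list's length, so a low percentage is strong. All 18854 regions called in both WT lists were put in 10 equal classes by the mean of the 2 ranks. Marker genes were looked up in the lists. Within 1 kb of the gene ends of Ly6c2, Csf1r, Irf8, Klf4, Mpo and Kit, a peak was called in all 4 H3K4me2 lists. Cx3cr1, a chemokine receptor of monocytes, and Batf3, a transcription factor of dendritic cells, were called in neither DE list and in both WT lists. The neutrophil gene S100a8 and the erythroid gene Klf1 were called in both DE lists and in neither WT list. Cd79a, a gene of B cells, was called in DE replicate 1 alone, and Csf3r, a receptor gene of neutrophils, in DE replicate 2 alone. Pax5, a second B cell gene, Cd3e of T cells and Clec9a of cDC1 were called in none. The part of other cells in the lists was not tested.

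No genome of the files' build was at hand, so the sequence of the distal regions themselves is not printed. RefSeq promoter windows (GRCm38.p6, from 250 bases before to 50 after an annotated start) overlapped 122 of the members, or 5.68%, through 141 windows. These windows belong to non-coding genes or to internal starts of protein-coding genes, since every member lies away from the outer ends of protein-coding genes. Of these windows 5 are printed: that of the strongest member on a window (Gm41603), those of a tight group (Ppm1h) and of a listed gene (Gata3), and 2 examples from protein-coding genes with motif matches (Shc1 and Ralgds). The choice was made after their values were seen. Each is written 5′ to 3′ on the strand of its gene. Capitals mark matches, on either strand, to 6 of the 12 motifs searched, namely the E-boxes CAGGTG and CAGCTG, the ETS-type GAGGAAG, the C/EBP-type TTGCNNNAA, the RUNX-type TGTGGTT and the AP-1-type TGANTCA.
Gm41603 (chr17:55932148-55932447, minus strand): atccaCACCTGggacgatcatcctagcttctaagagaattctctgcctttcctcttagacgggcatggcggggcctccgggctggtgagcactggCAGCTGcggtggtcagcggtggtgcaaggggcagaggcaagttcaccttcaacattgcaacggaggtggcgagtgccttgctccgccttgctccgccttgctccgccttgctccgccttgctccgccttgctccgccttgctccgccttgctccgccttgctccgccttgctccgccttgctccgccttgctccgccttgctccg
Shc1 (chr3:89421371-89421670, plus strand): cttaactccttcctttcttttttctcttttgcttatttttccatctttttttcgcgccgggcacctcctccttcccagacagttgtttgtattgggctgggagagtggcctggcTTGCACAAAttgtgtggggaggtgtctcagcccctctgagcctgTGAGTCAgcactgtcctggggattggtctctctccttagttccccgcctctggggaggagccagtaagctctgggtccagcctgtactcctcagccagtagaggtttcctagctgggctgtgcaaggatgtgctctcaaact
Ralgds (chr2:28533214-28533513, plus strand): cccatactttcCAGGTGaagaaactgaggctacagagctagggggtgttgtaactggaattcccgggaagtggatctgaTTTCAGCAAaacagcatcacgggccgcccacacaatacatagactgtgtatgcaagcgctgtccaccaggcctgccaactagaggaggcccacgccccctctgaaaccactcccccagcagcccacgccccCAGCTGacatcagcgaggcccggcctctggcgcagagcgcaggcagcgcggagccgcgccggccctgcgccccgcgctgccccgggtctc
Ppm1h (chr10:122678512-122678811, plus strand): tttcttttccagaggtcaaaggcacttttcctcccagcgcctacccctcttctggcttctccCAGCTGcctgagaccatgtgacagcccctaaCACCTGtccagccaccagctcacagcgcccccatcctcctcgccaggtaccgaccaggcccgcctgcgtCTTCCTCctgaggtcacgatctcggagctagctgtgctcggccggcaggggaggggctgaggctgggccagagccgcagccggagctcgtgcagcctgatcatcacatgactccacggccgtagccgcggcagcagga
Gata3 (chr2:9878551-9878850, minus strand): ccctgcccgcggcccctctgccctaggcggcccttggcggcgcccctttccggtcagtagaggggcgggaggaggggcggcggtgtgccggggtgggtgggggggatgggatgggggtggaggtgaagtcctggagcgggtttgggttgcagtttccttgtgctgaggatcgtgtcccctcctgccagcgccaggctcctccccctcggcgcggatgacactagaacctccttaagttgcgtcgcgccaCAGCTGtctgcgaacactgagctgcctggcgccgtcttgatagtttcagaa

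Gm41603 is a long non-coding RNA gene whose start lies under the second strongest member, chr17:55932100-55932278, and 131 bases of the printed window lie within that member. Those bases are a short unit repeated in tandem, and the 2 E-box matches lie outside the repeat. Shc1 encodes an adaptor of receptor tyrosine kinase signalling, and its window shares 192 bases with the member at chr3:89421465-89421656. The 1 AP-1-type and 1 C/EBP-type match of this window lie within the member. Ralgds encodes an exchange factor for Ral GTPases, and its window holds both E-boxes and a C/EBP-type match. A member covers 171 bases of it, with the CAGCTG inside and the CAGGTG and the C/EBP-type match outside. Ppm1h encodes a protein phosphatase, and its window holds both E-boxes and an ETS-type match. The first of 3 members packed within 2.15 kb covers 180 bases of it, with the ETS-type match inside and both E-boxes outside. Gata3 encodes a transcription factor of T cells and innate lymphoid cells, and its window holds 1 CAGCTG, which lies across the edge of the member. A match is a description of these letters and does not show binding. Motif shares below count matches in whole windows, whether or not they lie within a member.

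Over all 12 motifs the windows on members mostly held shares close to those on the kept regions, which are the regions of the same kind that a DE list also called (839 windows). The ETS-type GAGGAAG, a sequence bound by factors such as PU.1, was in 33 of 141 windows on members (23.4%, 95% Wilson interval 17.2% to 31.0%), against 13.8% of windows on kept regions and 13.4% of all 31396 windows. CAGGTG, which E proteins and ZEB2 can bind, was in 24.8% of windows on members (18.4% to 32.6%), 20.3% of those on kept regions and 20.4% of all windows. CAGCTG was in 22.0% (15.9% to 29.5%), 15.1% and 16.3% of the same 3 sets. The control E-box CATATG was in 2.84%, 1.67% and 3.71%. The CTCF-core-like AGGGGGC was in 19.9% and 19.7% of windows on members and on kept regions, and in 10.7% of all windows. Median GC content was 59.3% in windows on members, 61.7% on kept regions and 53.0% in all windows. Windows of neighbouring starts overlap and share letters, so these intervals are too narrow, and no test was made.

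Most members were weak in WT. Of all regions called in both WT lists, 3456 had no DE call (18.3% of 18854). A gene end within 1 kb left out 1250 of these, and an H3K4me3 peak a further 59. Among the 6801 regions of the members' own kind, which share everything with the members except the DE condition, the 2147 members made up 31.6%. The other 4654, the kept regions, were called in both DE lists (2928), in DE replicate 1 alone (1302) or in DE replicate 2 alone (424). In the reverse direction, 274 of 3777 such distal regions called in both DE lists had no WT call (7.25%).

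By WT rank the share of members climbed from 2.43% of the strongest class (6 of 247 regions) to 16.4% of the fifth and 61.9% of the weakest (704 of 1138). The 5 weaker classes together held 1957 of the members, and the 5 stronger ones 190. Regions within 1 kb of a gene end and without an H3K4me3 peak were lost less often in each of the 10 classes, 0% in the strongest and 46.0% in the weakest, and 16.3% in all (1097 of 6728). With an H3K4me3 peak the share was 3.64% near gene ends (153 of 4198) and 5.24% away from them (59 of 1127). Set to the rank make-up of the members' kind, these 3 shares came to 22.2%, 15.0% and 15.3%, beside 31.6% for the members' kind. The gap between promoter-like and distal regions thus became smaller at like WT rank. The contrast of calls is the one that chose the members, so it is given without a test.

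**Figure D1:**
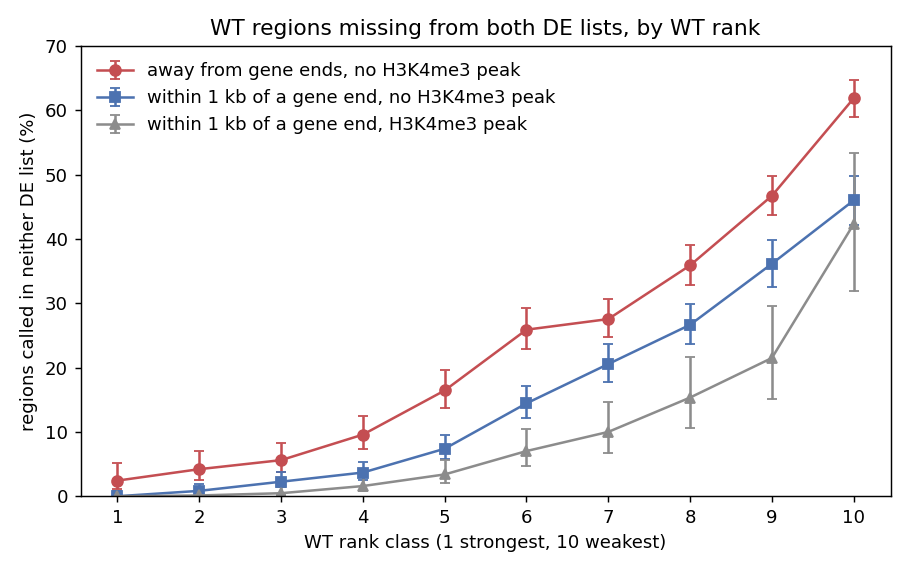
Share of regions called in both WT lists that had no DE call (y axis, %), by WT rank class (x axis, 1 strongest to 10 weakest), for 3 kinds of region, with 95% Wilson intervals as bars. The distal regions without an H3K4me3 peak, whose lost members are described here, run from 2.43% to 61.9%. They lie above the other kinds in each class.

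The number of members and the balance between genotypes changed with the length of the lists. Where all 4 lists were cut to 17079 peaks by -log10 p, the length of the shortest, 484 of 2899 distal regions were WT-only (16.7%) and 552 of 3230 were DE-only (17.1%). Of the 2147 members, 414 (19.3%) stayed WT-only in lists of equal length, and these made up 85.5% of the 484. The share of each whole list in distal places without an H3K4me3 peak was 41.0% and 34.4% in DE replicates 1 and 2. In WT replicates 1 and 2 it was 50.3% and 44.6%. The groups did not overlap, at 37.7 ± 4.71% in DE and 47.5 ± 3.99% in WT (SD, n = 2 each), with a DE minus WT difference of -9.77 percentage points. These shares come from the calls that chose the members, so they are a description and no p is given. With lists of equal length the difference was -0.36 points.

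The call in DE also leaned on single libraries. Without DE replicate 1 the rule would have found 3449 regions, and without DE replicate 2 it would have found 2571. Without WT replicate 1 it would have found 5617 regions and without WT replicate 2 it would have found 9052, since many peaks were in 1 WT list only. Ranks of the members in the 2 WT lists were loosely related (across regions, Spearman's rho 0.27 and Pearson's r 0.31), while the kept regions had values of 0.55 and 0.52. Regions are not independent replicates, and the members cover less of the range of ranks, so these are descriptions. In the stronger 50% of the WT replicate 1 list lay 751 of the members, 443 lay in that of WT replicate 2, and 252 in both.

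The members were narrow, single-summit regions. Their median width was 178 bp (quartiles 138 and 249, range 91 to 1354), against 345 bp in kept regions and 316 bp in kept regions weighted to the members' WT ranks. Kept regions join intervals from up to 4 lists, so the WT peaks alone are the fairer measure. In WT replicate 1 the strongest peak had a median width of 127 bp in members and of 150 bp in kept regions of like rank. In WT replicate 2 these widths were 143 bp and 201 bp. Like rank is set on the mean of the 2 lists, and in WT replicate 2 alone members ranked weaker (median 68.95% against 64.97%). More than 1 summit in a WT list was found in 143 members, or 6.66% (95% Wilson interval 5.68% to 7.79%), and in 21.2% of kept regions of like rank. A wide region has more bases on which a DE peak can fall, so width is not free of the rule.

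**Figure D2:**
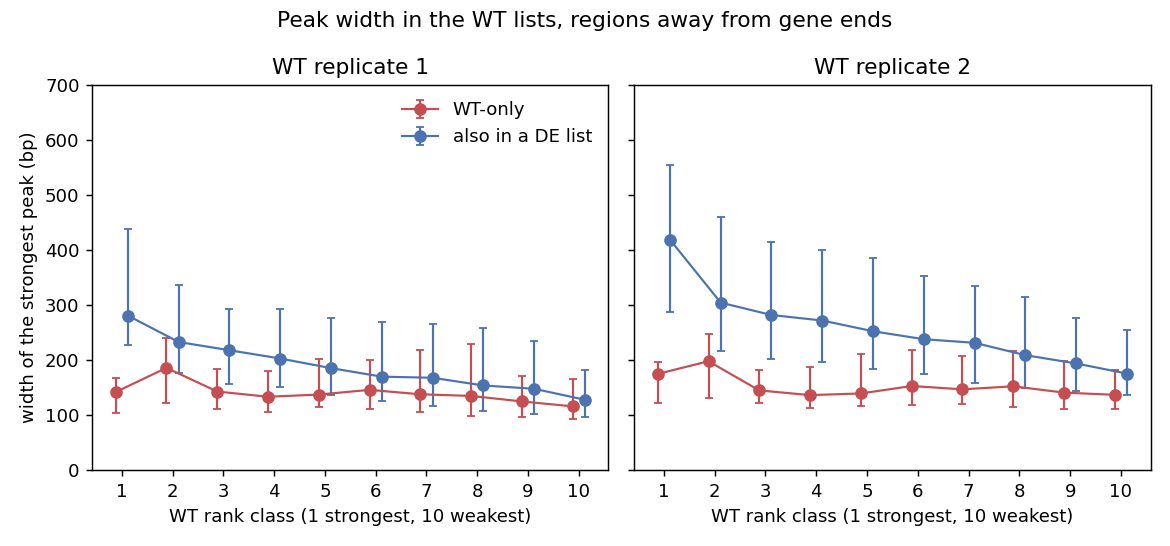
Width of the strongest peak (y axis, bp; points are medians and bars are quartiles) in WT replicate 1 (left) and WT replicate 2 (right), by WT rank class (x axis), for WT-only regions and for regions also called in a DE list. In both libraries the medians of WT-only regions stay below those of the other regions in all 10 classes.

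Members rested on few fragments. The fragments over a summit, recovered from the caller's fold and p, had a median of 7 in WT replicate 1 (range 3 to 136) and 11 in WT replicate 2 (range 5 to 140). Kept regions of like rank had medians of 6 and 11. The fold over local background had medians of 5.10 and 5.31 in members, in WT replicates 1 and 2, against 4.74 and 5.625 in kept regions of like rank. The weighting is on the mean of the 2 WT ranks and does not match each library. In WT replicate 1 the median rank was 60.38% in members and 65.97% in kept regions of like rank. In WT replicate 2 these ranks were 68.95% and 64.97%, so members were stronger in the first library and weaker in the second. The fewest fragments at any called summit were 5 and 6 in DE replicates 1 and 2, and 3 and 5 in WT replicates 1 and 2. Over all called summits the medians were 16 and 19 in DE, and 8 and 16 in WT. Both values were equal in DE replicate 1 and WT replicate 2, lowest in WT replicate 1 and highest in DE replicate 2. The part of these differences in the missing DE calls was not tested. What fragments the DE libraries had at the members cannot be read from peak lists.

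The members lay somewhat farther out than other distal regions. Their median distance to the nearest protein-coding gene end was 13.0 kb (quartiles 3.78 and 44.1), against 10.3 kb in kept regions of like rank. The gap came from near distances: 69.9% of members and 63.9% of kept regions of like rank lay more than 5 kb from a gene end, while 12.6% and 12.8% lay more than 100 kb away. Of the members, 1185 lay inside a protein-coding gene (55.2%, interval 53.1% to 57.3%), against 59.8% at like rank. Promoter windows overlapped 5.68% of members and 10.3% at like rank, and long non-coding RNA genes overlapped 13.1% and 12.8%. The chromosomes held similar shares, from 26.5% of distal regions on chromosome 19 to 37.3% on chromosome 1.

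Members also had fewer marked neighbours. Another region called in a DE list lay within 500 bp of 304 members (14.2%) and of 24.4% of kept regions of like rank. Within 5 kb these shares were 41.7% and 51.5%, and within 100 kb they came to 85.2% and 86.2%. A neighbour called in all 4 lists lay within 5 kb of 27.9% of members and of 37.6% of kept regions of like rank. The difference was thus one of the nearest few kb, and most members shared a 100-kb neighbourhood with H3K4me2 that the DE lists did hold. The DE lists that give these neighbours also split members from kept regions, so this measure is not free of the rule.

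**Figure D3:**
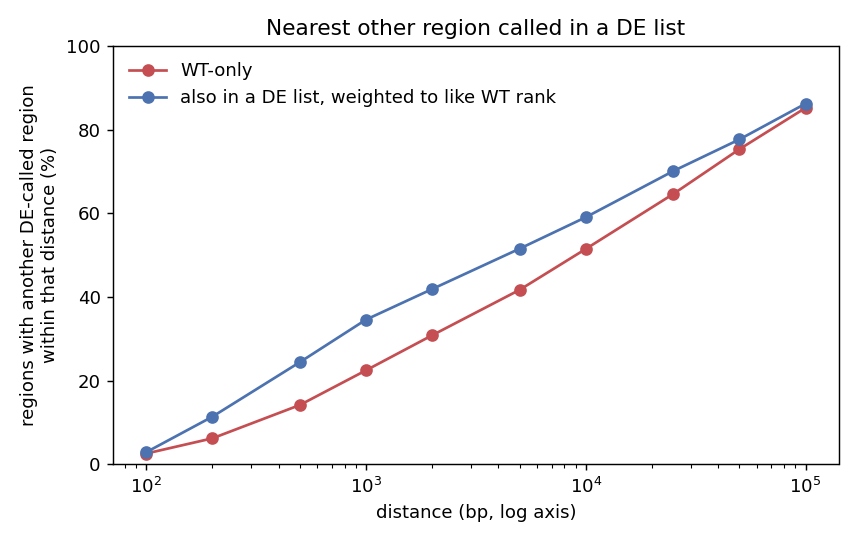
Share of regions (y axis, %) that had another region called in a DE list within the distance on the x axis (bp, log axis), for WT-only regions and for regions also called in a DE list, weighted to like WT rank. The WT-only curve lies lower, at 14.2% against 24.4% within 500 bp, and the curves meet near 100 kb.

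At the 1-kb limit the nearest members were 1001 bp from Ogfod2 (143 bp wide, 15 fragments in each WT library), 1013 bp from Creg2 (162 bp wide) and 1015 bp from 2310011J03Rik (101 bp wide, inside Apc2). Just outside the rule were WT-only regions 991 bp from a gene end of Megf9 and 988 bp from Rcn3, which had 4 and 6 fragments in WT replicate 1 and 11 each in WT replicate 2. Members and left-out regions beside the limit overlapped in width.

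The strongest member, chr9:88553235-88553334 inside the zinc finger gene Zfp949, was 100 bp wide with 136 fragments over its summit in WT replicate 1 and 138 in WT replicate 2. Its folds over background were 92.8 and 67.0, and it ranked at 0.015% and 0.032% of the WT lists. The nearest region with a DE call was 4885 bp away. The second, on the start of Gm41603 and 6.10 kb from Zfp119b, had 89 and 140 fragments in WT replicates 1 and 2, but folds of only 10.4 and 5.23, so the caller's local background there was high. The third, inside Cd163l1, a scavenger receptor gene, had 43 and 39 fragments and folds of 29.4 and 12.9. The member 262 kb from Tafa5 was 117 bp wide with 59 and 57 fragments, and that 83.4 kb from Rfc3, a subunit gene of the DNA clamp loader, was 99 bp wide with 62 and 108 fragments. These narrow stacks of fragments stand far above the medians of 7 and 11.

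Of the 20 best-ranked members, 7 lay inside a protein-coding gene and 4 lay in 1 tandem array of 5S ribosomal RNA genes described below. Widths ran from 99 to 634 bp, and summits held 12 to 136 fragments in WT replicate 1 and 17 to 140 in WT replicate 2. Inside genes were the members of Lrrfip1, an innate sensor of nucleic acids (202 bp, 21 and 37 fragments), Akna (161 bp, 14 and 21 fragments), and Prkag2, a subunit of AMP-activated kinase (634 bp, 21 and 17 fragments). Those of Akap6, which anchors protein kinase A, and Fgd5, an exchange factor gene of endothelial and stem cells, had 20 and 33, and 30 and 18 fragments. Outside genes, a 226-bp member lay 58.8 kb from Ly86, which encodes the MD-1 partner of a Toll-like receptor homologue in B cells and macrophages, with 20 and 30 fragments and folds of 14.2 and 15.0. The members nearest Twist2, Dach1 and Alyref2 were 196, 114 and 247 bp wide. Members near Ccl21b and Gm13304 lay in a part of chromosome 4 where chemokine genes occur in near-identical copies. The reads of these members may thus belong to another copy.

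The widest members were not the strongest, and fell in rank classes 3 to 7. They lay 156 kb from Cops8 (1354 bp), inside Mepe (1288 bp), 22.1 kb from Hephl1 (1251 bp), inside Epg5, an autophagy gene (1219 bp), and inside Arl15 (1141 bp). Their summits held 7 to 19 fragments in WT replicate 1 and 9 to 27 in WT replicate 2. The member near Cops8 had a DE-called region 528 bp away, and for the one inside Mepe the nearest was 127751 bp away.

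Members were spread over many genes. Of the 1877 members with a protein-coding gene end within 100 kb, each gene taking the members nearest to it, 1419 genes had 1, 170 had 2 and 33 had 3 or more, 1622 in all. The most, 15 of its 39 distal regions called in both WT lists, went to Gas8, all of them in the 5S array beside it. The predicted gene Gm40363 had 5 of 7. Sdccag8, a centrosome gene, had 4 of 4, all inside its body between 11.6 and 21.4 kb from its end. Smim14 had 4 of 6, inside its body. The predicted gene Gm21119 had 4 of 21, a smaller share than the 31.6% of all distal regions.

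In 24 loci at least 3 members lay within 25 kb of each other, 97 members in all, 19 of them in the 5S array. Such groups were not counted among kept regions, so these numbers do not show that members cluster. The nearest other member lay at a median of 194029 bp from members, and the nearest member at 200445 bp from kept regions of like rank. At Ppm1h, 3 members inside the gene spanned chr10:122678632-122680777 (2.15 kb), were 363, 240 and 251 bp wide, and had 13, 7 and 7 fragments in WT replicate 1 and 14, 18 and 11 in WT replicate 2. No kept region lay among them, and the nearest region with a DE call was 119664 bp away. The second of them overlaps the hairpin of mmu-miR-8104 but not its mature sequence. Inside Map6, which encodes a microtubule stabiliser, 3 members of 866, 324 and 553 bp spanned 2.33 kb, with 6 to 11 fragments in each WT library and no DE-called region within 58.8 kb. The 3 members 224 to 228 kb from Galr1 had DE-called regions 197 to 1478 bp away, and the 3 inside Gse1 were interleaved with 3 kept regions. Elsewhere 3 members each lay at Tal1 with Stil, Zfhx3, Ski, Pxn, Plxnb2 and Gna13.

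The densest group lay on the main array of 5S ribosomal RNA genes, chr8:123538784-123622046 (83.3 kb), where the annotation has 50 entries (48 rRNA genes and 2 pseudogenes) at a median spacing of 1698 bp. The 5S RNA is a component of the large ribosomal subunit and is made by RNA polymerase III. With 2 kb on either side the array held 96 H3K4me2 regions, called in 42 and 28 cases in DE replicates 1 and 2, against 92 and 63 in WT replicates 1 and 2. None had an H3K4me3 peak. Of its 59 distal regions called in both WT lists, 19 were members, 28 were called in all 4 lists and 12 in DE replicate 1 besides WT. No region of the array was called in both DE lists without WT.

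The 19 members were 32.2% of the array's distal regions (interval 21.7% to 44.9%), which is near the 31.6% of all distal regions. The array's regions were strong, however, and at the shares of their rank classes 7.04 would have been members. The members there were the weaker parts of the array: they had medians of 10 and 13 fragments in WT replicates 1 and 2, and the 40 kept regions had medians of 39 and 53.5. Of the members 9 overlapped a 5S entry, and of the kept regions 39 did, so members also lay between the repeats. The strongest, chr8:123554154-123554631 on n-R5s109, was 478 bp wide with 22 and 38 fragments. The next ones lay on n-R5s106 (36 and 40 fragments), n-R5s124 (29 and 28) and n-R5s136 (29 and 22). The copies are nearly identical, so a read cannot be placed on 1 copy with certainty, and which repeat has a call is uncertain. Attention to this array came from the values, and it was not chosen beforehand. The number of its members was 12 with lists of equal length, 31 without DE replicate 1 and 50 without WT replicate 2.

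**Figure D4:**
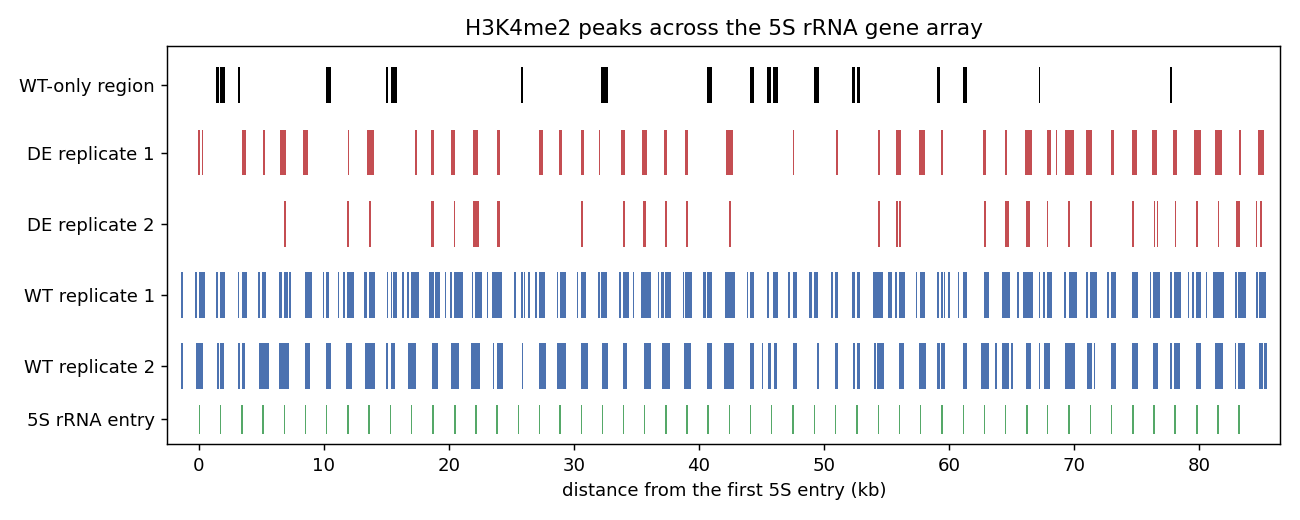
H3K4me2 peaks (bars, to scale) along the 5S rRNA gene array, by distance from its first entry (x axis, kb), in the DE libraries (red), the WT libraries (blue), the 19 WT-only regions (black) and the annotated 5S entries (green). Peaks recur at the spacing of the repeats in each library, and are fewest in DE replicate 2.

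A second set of members lay at transfer RNA genes, which RNA polymerase III also transcribes. Within 500 bp of an autosomal tRNA gene there were 59 distal regions called in both WT lists, and 24 of them were members (40.7%, interval 29.1% to 53.4%), against 31.6% of all distal regions and 18.6 members at the shares of their rank classes. They were small, with a median width of 151 bp and medians of 7 and 13 fragments in WT replicates 1 and 2, and 19 overlapped the tRNA gene itself. By chromosome, 6 lay on chromosome 1, 5 each on chromosomes 3 and 13, 3 on chromosome 14, 2 on chromosome 17 and 1 each on chromosomes 2, 5 and 7. The strongest were 135 bp at n-TDgtc4 beside Fcgr4 (9 and 13 fragments), 121 bp at n-TPcgg2 near Rcsd1 (10 and 8 fragments) and 152 bp at n-TLaag8 (9 and 15 fragments). Groups of 3 lay in the tRNA and histone gene cluster of chromosome 13 near Prss16 and beside Fcgr3 on chromosome 1.

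Counted by gene, 146 and 112 of 391 tRNA genes had a peak within 500 bp in DE replicates 1 and 2, against 161 and 168 in WT replicates 1 and 2. Of the 142 called in both WT lists, 17 had no DE call (12%, interval 7.61% to 18.3%), and 3 showed the reverse pattern. For starts of protein-coding genes the share was 7.13% (677 of 9500), with 46 in reverse, and for starts of long non-coding RNA genes 10.4% (129 of 1239), with 11 in reverse. The interval for tRNA genes includes the share of long non-coding starts and begins just above that of protein-coding starts. Of the 107 such tRNA genes more than 1 kb from a protein-coding gene end, 17 had no DE call (15.9%, interval 10.2% to 24.0%). These shares by gene were not set to like WT rank, and neighbouring tRNA genes can share a peak. The 24 members at tRNA genes became 2 with lists of equal length, 7 with a -log10 q of at least 5, 40 without WT replicate 1 and 42 without WT replicate 2. tRNA genes were looked at after they were seen among the members, and many are in copies that share sequence. The part of read placement in either set of polymerase III genes was not tested.

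Members near listed genes were counted over lists of myeloid, lymphoid, erythroid, cell cycle and housekeeping genes together. Over 18 lists with 288 genes, of which 279 were found on the autosomes, 197 distal regions called in both WT lists were nearest to a listed gene, and 37 of these were members (18.8%, against 31.6% of all distal regions). At the shares of their rank classes there would have been 56.4. No p is given for this, since regions near 1 gene are not independent and the lists were drawn up with results in view.

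The 20 stem and progenitor genes had 39 such regions, of which 3 were members, beside 11 at the shares of like rank. They were 2 regions inside Tal1, a transcription factor of blood stem cells, and 1 region 31.6 kb from Myb, a transcription factor of progenitors. The wider of the 2 at Tal1, chr4:115062989-115063587, was 599 bp with 16 and 25 fragments in WT replicates 1 and 2 and had a DE-called region 326 bp away. The 23 myeloid transcription factor genes had 53 regions and 10 members, beside 13.3 at like rank. Spi1, which encodes the myeloid factor PU.1, had a member of 107 bp in its body with 7 and 11 fragments. Etv6, a repressor needed by blood stem cells, had one of 167 bp with 5 and 18 fragments, and Cbfa2t3, a corepressor partner of E proteins, one of 147 bp with 7 and 12 fragments. Members also lay 50.4 kb from Runx3, 87.5 kb from Cebpb, 1.17 kb from Cebpd (inside Spidr) and near Egr1 and Junb, all transcription factor genes used in myeloid cells.

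Among 24 monocyte and macrophage genes, 19 regions included 3 members, beside 5.03 at like rank. Among them were a 109-bp region 2.63 kb from Lyz2, the lysozyme gene (7 and 9 fragments), and the Ly86 region above. The granule and neutrophil genes had 0 members of 6 regions, conventional dendritic cell genes 0 of 5, plasmacytoid dendritic cell genes 0 of 4 and interferon response genes 0 of 4, beside 1.30 to 1.76 at like rank, and numbers this small carry no weight. The B cell genes had no such region and the mast, basophil and eosinophil genes 1, which was kept.

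E proteins are transcription factors that bind E-boxes, and ID proteins block them. The 12 genes of E proteins and their inhibitors had 20 regions and 4 members, beside 6.03 at like rank. A member of 362 bp lay 21.1 kb from Tcf12, which encodes the E protein HEB (11 and 13 fragments), and 2 lay inside Zeb1, the paralogue of Zeb2 (6 and 13, and 3 and 7 fragments). The fourth was that of Cbfa2t3. At Zeb2 itself there was none: of 14 H3K4me2 regions within 300 kb of the gene, 0 belonged to the distal kind called in both WT lists, and the nearest member was 813 kb away.

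The other lists had 1 to 6 members each. Cytokine and chemokine receptor genes had 3 members of 14 regions (4.97 at like rank), at Csf2ra, Il1r1 and Tnfrsf1b. The member inside Il1r1, the interleukin-1 receptor gene, lay on an internal start and was 133 bp wide with 5 and 6 fragments. Toll-like receptor and innate signalling genes had 3 of 16 (4.07), all beside Fcgr3 and all within 500 bp of tRNA genes. Cell cycle genes had 6 of 18 (5.56), at Mki67, Ccne1, Ccnd2, Ccnd3 and Cdkn1a. Erythroid and megakaryocyte genes had 3 of 6 (2.49), 2 inside Itga2b, the platelet integrin gene, and 1 inside Nfe2. The T cell list had 1 of 5 (0.85), the 102-bp member on the Gata3 start with 7 and 17 fragments, whose sequence is printed above. Antigen presentation genes had 1 of 3 (0.99), at Cd80, natural killer and innate lymphoid genes 1 of 2 (0.64), at Klrb1c, and housekeeping genes 2 of 8 (2.57), at Actb and Ywhaz.

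**Figure D5:**
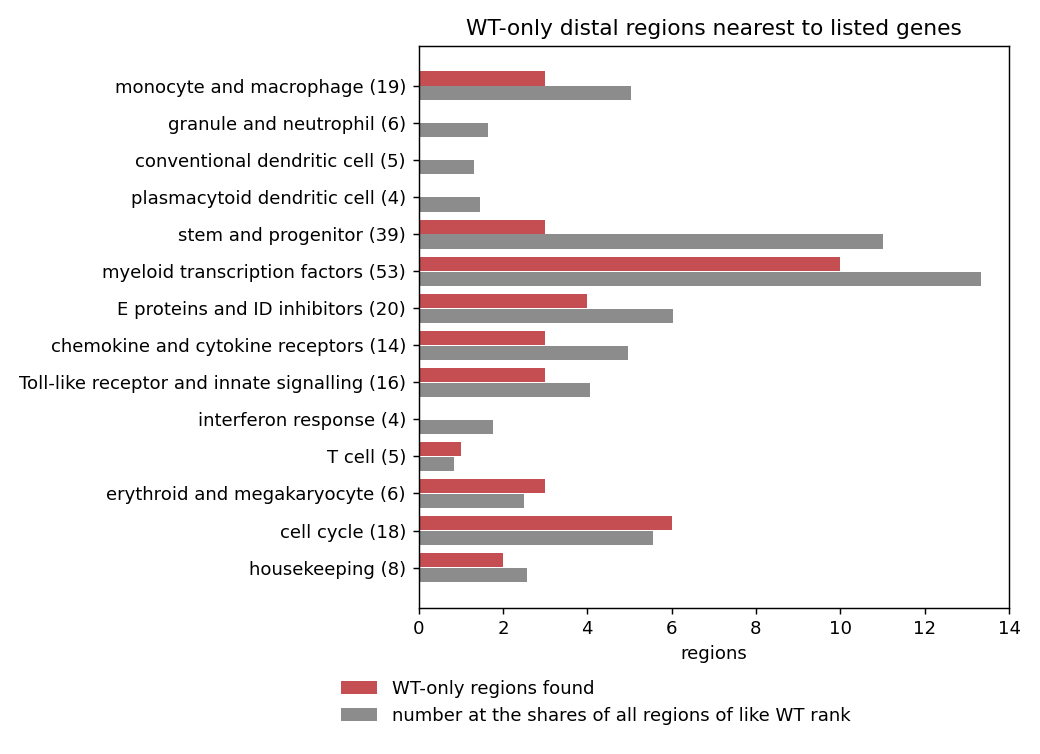
Number of WT-only distal regions (x axis) nearest to the genes of each list with at least 4 distal regions called in both WT lists (number in brackets), found (red) and at the shares of all such regions of like WT rank (grey). The stem and progenitor list has 3 against 11, and the cell cycle list 6 against 5.56.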

How the data were processed

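Peak lists of 5 of the 7 samples were used, each of 1 library, so peaks were called per sample. Per the submitters' processing notes the tools were Trimmomatic, Bowtie2, SAMtools, Picard and MACS2 2.2.9.1 with the mm10 build. The caller's settings, its control and the treatment of duplicates are not stated there or in the file headers. Each deposited entry holds a score (the -log10 q times 10 without its decimals), a fold of pileup over local background (a ratio within the library), the -log10 p and -log10 q of the summit, and the summit's offset, all the authors' own values. The track line in the file of DE replicate 1 names DE replicate 2, while the series record ties the file to replicate 1, which was followed.

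Intervals on chromosomes 1 to 19 that touch or overlap were merged, and 1 bp in common with a peak counted as a call. Gene ends came from RefSeq GRCm38.p6. Ranks used the 21 chromosomes (1 to 19, X and Y). Where like rank is stated, values of kept regions were weighted to the members' 10 WT rank classes. Intervals of shares are 95% Wilson intervals and reflect counting error alone. Fragments at a summit were solved from fold and p, with 1 fragment counted as 0.834 and 0.679 in DE and as 1.0 and 0.963 in WT, for 99.97% to 99.99% of summits. The lowest local background common among summits, in units of pileup, was 0.417 and 0.418 in DE, and 0.135 and 0.349 in WT. The lists carry no read totals, and the depth is unknown. The shortest interval was 109 bp in both DE lists, and 74 and 91 bp in WT. The code was tested on simulated data.

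The members and the gene lists were chosen with earlier results of these data known. Named are the 20 best-ranked members, the 5 widest, those beside the 1-kb limit, the 5 genes with the most, the 5 tightest groups of 3 within 25 kb, and up to 6 genes a list; exceptions are the other groups of 3, further genes of the lists, and members at 5S and tRNA genes, chosen after their values were seen. A few regions that this rule names are not reported here. Motifs were searched in RefSeq promoter windows, as no genome was used. No test is given in the report. The exact permutation test planned for the distal share of the 4 lists uses the calls that chose the members and cannot go below p = 0.333. Replicate numbers are shared by the genotypes, but no label says that they pair samples. Tried as alternatives were equal list lengths, a limit of 5 on -log10 q, merging within 500 bp, 50% cover, other distances and gene ends, H3K4me3 regions kept, each replicate left out, the replicate block and, chosen after seeing the data, the 5S array left out. Python 3.11.15, pandas 2.3.3 and scipy 1.17.1 were used.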

Additional observations from a re-analysis of the deposited data

Results flagged for a closer look

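The rule covers the autosomes, and the sex chromosomes were therefore outside the report's comparisons. On chromosomes X and Y, 81 regions had the same pattern of calls and positions, which was 29.8% of 272 distal regions called in both WT lists (95% Wilson interval 24.7% to 35.5%), near the 31.6% of the autosomes. In the reverse direction 18 regions were DE-only there. The regions on X and Y are given because the report did not use these data, and not because their share stands out.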

How the results depend on the processing

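The 2147 members, their 31.6% share of distal WT regions, their median width of 178 bp and the 55.2% inside a gene were recomputed under 13 alternatives. With a -log10 q of at least 5 in all lists these values were 1201, 34.7%, 220 bp and 59.3%, and 480 of the members (22.4%) were among the 1201. With lists of equal length 484 regions were WT-only, a share of 16.7%. With 50% cover the share was 43.1% and the width 171.5 bp, with merging within 500 bp the width was 192 bp, and with 5 kb in place of 1 kb the values were 34.9%, 186 bp and 49.1% inside a gene. Using the ends of all annotated genes gave 57.8% inside a gene. It left 0 members at tRNA genes and in the 5S array by construction, since the ends of those genes then count. Across the alternatives that do not take these genes out, members at tRNA genes numbered 2 to 42, against 24. Those in the array numbered 8 to 50, against 19. Without the H3K4me3 filter the share was 27.8%. Leaving out each replicate in turn gave 2571 to 9052 regions, shares of 37.8% to 62.1%, widths of 115 to 206 bp and 46.5% to 56.1% inside a gene. Without the 5S array there were 2128 members. The distal share of the lists, DE minus WT, stayed below 0 in all 11 alternatives, from -13.1 to -0.36 points. The value of -0.36 points is that with lists of equal length, and the other alternatives did not set the lengths equal. The replicate block leaves the difference at -9.77 points by construction. Members rest on few fragments, and the lists do not show whether the mark was present in DE below the caller's limit.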
